A study of Homo sapiens with 6 samples.

Results

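The hAT superfamily of DNA transposons was followed in 6 RNA libraries of H9, an established line of human embryonic stem cells, as 98 named repeat entries among the 7383 entries of the deposited CPM table. An entry was a member when its name began with a hAT family name (Charlie, Cheshire, Arthur, Zaphod, ORSL or hAT) or was one of the MER names that belong to the superfamily. The rule used names among the entries listed in that table, which holds those with at least 10 counts in total, and no difference between groups. They fell into 41 Charlie and Cheshire entries, 28 MER entries of the hAT-Charlie group, 20 entries of the hAT-Tip100 group (Arthur, Zaphod, ORSL, MER45, MER91, MER96 and MER115), 7 entries of the hAT-Blackjack group (MER63, MER81 and MER94) and 2 entries with hAT in their own name. A further 12 names of the same kind had 0 counts in all 6 libraries.

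The libraries formed 3 groups of 2. RSeT+DT cells were grown in RSeT, a commercial medium for holding human stem cells in a naive-like state, and were exposed to 10 nM DZNep and 5 nM TSA for 48 hours. RSeT cells were kept in that medium without the 2 drugs, and primed cells were kept in mTeSR. DZNep blocks the hydrolase that clears S-adenosylhomocysteine and so depletes EZH2 and the repressive mark H3K27me3; TSA, trichostatin A, blocks histone deacetylases. All groups share 1 line, and the labels do not say whether the 2 libraries of a group came from separate cultures, so every p below measures the spread between these libraries. Markers of the cell state could be read only from repeats. HERVH-int, transcribed in pluripotent cells, had 114900 to 118600 CPM in RSeT+DT, 73440 to 75620 CPM in RSeT and 23830 to 26520 CPM in primed libraries. LTR5_Hs, an LTR active in naive-like cells, had 3998 to 4247 CPM, 3974 to 4019 CPM and 327.3 to 364.7 CPM in the same order of groups. HERVK-int, also read for naive-like cells, had 16530 and 17480 CPM, 20070 and 19230 CPM, and 335.8 and 344.5 CPM, so RSeT was highest. Among LTRs read for trophoblast, LTR8 and MER41B were higher in RSeT than in primed cells (log2 fold change 0.406 and 0.385, TMM scaling). LTR10A and MER11D were lower (-0.188 and -0.237), and LTR2B was not called (0.0323). No cell type is named from these repeats.

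hAT elements are cut-and-paste DNA transposons, named for hobo of the fruit fly, Ac of maize and Tam3 of snapdragon. An autonomous element codes for a transposase that recognises the short inverted repeats at the element's ends. Charlie elements once coded for such a transposase, while many MER entries are short derivatives without one that depended on a relative's enzyme. No human copy is known to be mobile today, and the copies are old and scattered, many of them inside introns. RNA counted in a hAT entry can thus be part of a host gene's primary transcript, of a mature RNA that took up the element, or of a transcript that starts in it. Each deposited count sums all genomic copies of an entry, so these sources, and the copies, cannot be told apart. In bulk RNA, fewer cells with a transcript and less RNA per cell cannot be told apart either.

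The 6 libraries held 11520770 to 38312112 repeat counts, of which 235659 to 987759 fell in hAT entries. The lowest member had 15 counts in its shallowest library. All 98 members passed the filter on low counts.

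hAT RNA took the smallest share of repeat counts in RSeT+DT cells. Of all repeat counts, the 98 entries held 1.94% and 2.05% with RSeT+DT, against 2.58% and 2.61% with RSeT alone, and 2.68% and 2.83% in primed cells. The groups did not overlap, and both RSeT+DT libraries were below the other 4. The means were 1.99% ± 0.077, 2.59% ± 0.020 and 2.75% ± 0.10 (SD, n = 2 each), and counting error added at most 0.0088 percentage points either way (95% Wilson interval). With 2 libraries against 2 an exact two-sided permutation test cannot give a p below 0.333, so the shares carry no further test. HERVH-int, given above, and other abundant entries enter the same total, and their part in the hAT share was not tested.

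**Figure D1:**
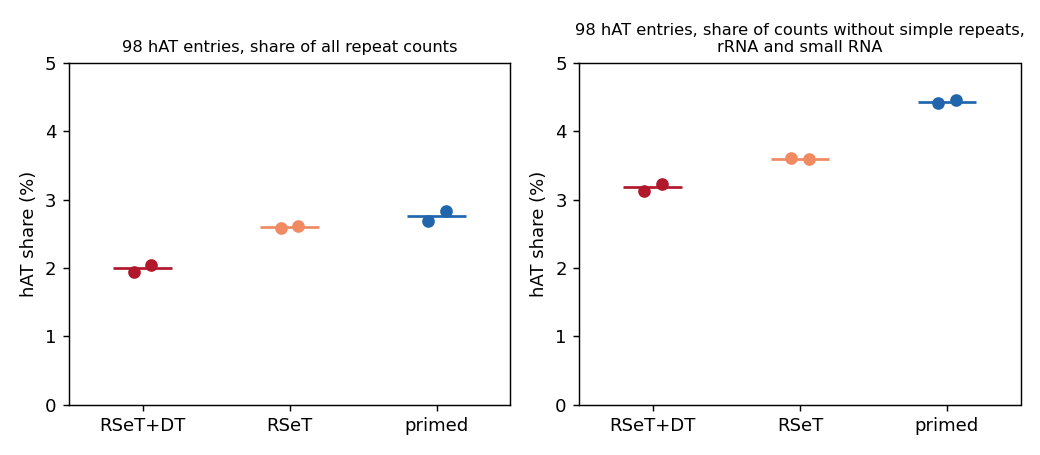
Share of counts in the 98 hAT entries (y axis, %) in each library of RSeT+DT, RSeT and primed cells (x axis), of all repeat counts (left) and of counts without simple repeats, rRNA and small RNA (right). Points are libraries and bars are group means. On the left the groups average 1.99%, 2.59% and 2.75%, and on the right 3.18%, 3.60% and 4.43%.

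The same order held when simple repeats, ribosomal RNA and small RNA were left out of the total. hAT entries then held 3.13% and 3.23% of counts in RSeT+DT, against 3.61% and 3.59% in RSeT and 4.41% and 4.45% in primed libraries. Other ancient repeats had shares in the same order: 16 MIR and L2 entries, a SINE and a LINE family that also stopped moving long ago, held 7.87% ± 0.19, 10.1% ± 0.19 and 11.2% ± 0.44 of all repeat counts (SD, n = 2 each). For 81 other DNA transposon entries (Tigger, mariner and relatives) the shares were 1.30% ± 0.067 in RSeT+DT, against 1.76% ± 0.0017 in RSeT and 1.66% ± 0.047 in primed cells, so RSeT was the highest group there.

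The bulk of hAT counts came from short MER entries. MER5A, a short element spread through mammalian genomes, held 10.7% of all hAT counts, MER20 7.80%, MER5B 6.90%, MER58A 5.61% and MER1B 4.38%. These shares depend on how many copies an entry has and how long they are, and are not levels per copy. MER5A made up 11.4% and 11.0% of hAT counts in RSeT+DT, against 10.5% and 10.6% in RSeT and 10.8% in both primed libraries. Its part of the family was thus slightly larger in RSeT+DT than in the other 4 libraries. In mean CPM, 63 of 98 members had the order primed above RSeT above RSeT+DT, and 30 had RSeT highest and RSeT+DT lowest. This order was not counted over all entries, so it does not set the members apart from them. Of all 4665 entries tested, 41.9% lay lower in RSeT+DT than in RSeT without overlap in CPM, and 54.5% lower than in primed.

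Whether DZNep and TSA changed hAT RNA was asked by comparing RSeT+DT with RSeT cells. In RSeT+DT cells 72 of 98 hAT entries fell, 2 rose and 24 were not called (edgeR quasi-likelihood test, TMM scaling, Benjamini-Hochberg adjusted p under 0.05 over all 4665 entries tested). Of all 4665 entries, 17.4% were called lower and 25.0% higher. Among the 1154 tested entries that are not simple repeats, rRNA or small RNA, 627 were lower and 64 higher. The median log2 fold change was -0.27 over hAT entries, -0.22 over those 1154, -0.34 over 76 other DNA transposon entries (59 lower, 2 higher) and -0.22 over 12 MIR and L2 entries (9 lower, none higher). In deposited CPM, both RSeT+DT libraries lay below both RSeT libraries for 94 of 98 members and above them for 2, against 41.9% and 28.9% of all entries tested.

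How many entries were called differed between scalings. Simple repeats make up 73.6% of the entries that TMM was computed over. With library totals 89 hAT entries were lower and 1 higher, against 24.8% and 16.9% of all 4665. Interspersed scaling left out simple repeats, rRNA and small RNA, and kept satellites and other entries with the interspersed repeats. It was fitted on its own 1151 entries, so the estimates of spread and the adjustment of p changed along with the scaling. With it the hAT median moved by 0.22 to -0.05. Higher were 14 entries and lower 26, against 22.7% and 20.8% of the 1151 entries tested there. Called in 1 direction under each of 4 scalings (TMM, RLE, library totals, interspersed) were 26 entries lower and 1 higher, against 20.8% and 2.26% of those 1151. In each comparison the hAT counts under 4 scalings equalled those of the scaling with the fewest calls in that direction. They are thus not 4 separate checks. Scaled on the 98 hAT entries themselves, which shows entries that part from the family, 19 were higher and 14 lower, where 40.4% and 4.16% of all 4665 entries were. The 26 lower entries are those called lower with interspersed scaling, and the other scalings add no further check on them.

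**Figure D2:**
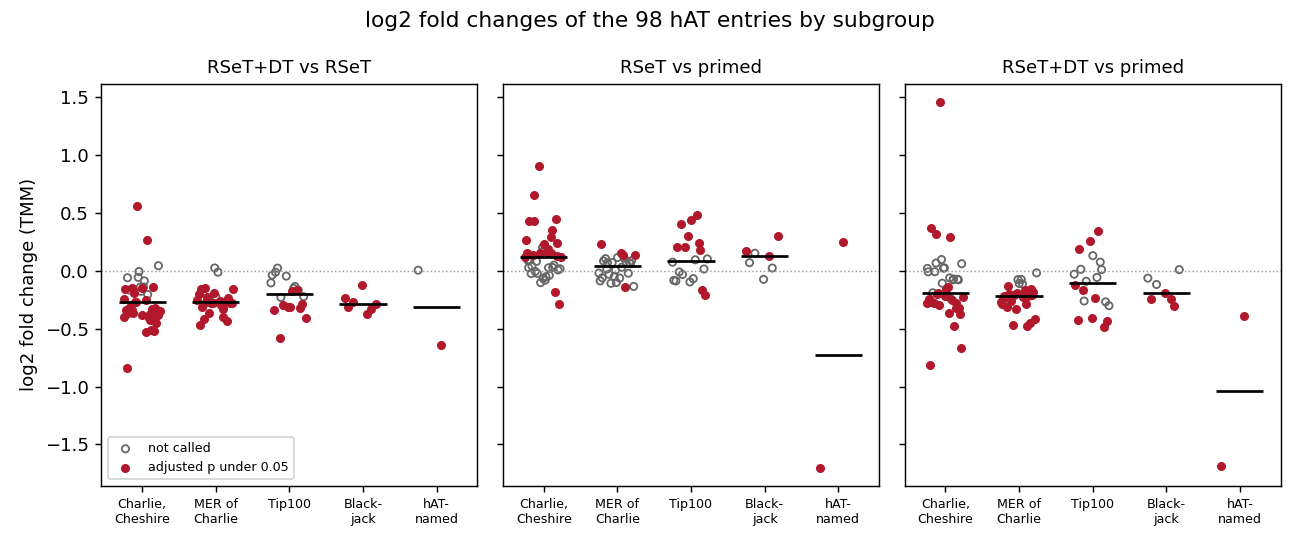
log2 fold change with TMM scaling (y axis) of the 98 hAT entries by subgroup (x axis) in the 3 comparisons. Each point is 1 entry, filled where the adjusted p was under 0.05, and the bar is the subgroup median. In RSeT+DT against RSeT most points lie below 0 (median -0.27, and -0.05 with interspersed scaling), Charlie21a stands highest at 0.56 and Charlie12 lowest at -0.84.

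By subgroup, 29 of 41 Charlie and Cheshire entries fell in RSeT+DT and 2 rose. Among MER entries of hAT-Charlie 25 of 28 fell, in hAT-Blackjack 7 of 7, and in hAT-Tip100 10 of 20, with no entry called higher in these groups under TMM. The medians were -0.27, -0.27, -0.29 and -0.20. Of all 4665 entries, 17.4% were lower and 25.0% higher under TMM. Of the 1154 entries other than simple repeats, rRNA and small RNA, 54.3% were lower and 5.55% higher. In hAT-Blackjack, MER81 was near the threshold (-0.12, adjusted p = 0.0298) and lost its call with only the 2 groups compared. With interspersed scaling, 16 Charlie and Cheshire entries were lower and 7 higher, 6 MER entries of hAT-Charlie lower and 3 higher, and 1 Blackjack entry lower and none higher. In hAT-Tip100 2 entries were lower and 4 higher under that scaling, where 20.8% of all 1151 entries were lower and 22.7% higher.

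Charlie21a, a member of the Charlie group, was the 1 entry called higher under all 4 scalings. It had 190.6 and 235.0 CPM in RSeT+DT, 169.8 and 149.4 CPM in RSeT and 92.12 and 95.54 CPM in primed libraries. The 3 groups did not overlap, and RSeT+DT was highest and primed lowest. Against RSeT it was 1.47-fold higher in RSeT+DT (log2 fold change 0.56, SE 0.059, adjusted p = 3.00e-08), and the log2 fold change stayed between 0.41 and 0.77 under the 4 scalings. Scaled on the hAT entries themselves, it was 0.83 above the rest of the family (adjusted p = 7.91e-10). Its share of hAT counts was 0.984% and 1.15% in RSeT+DT, against 0.659% and 0.573% in RSeT and 0.343% and 0.338% in primed libraries.

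Charlie6 was the other entry called higher under TMM. It averaged 102.9 ± 1.33 CPM in RSeT+DT, 94.78 ± 3.63 CPM in RSeT and 102.4 ± 3.13 CPM in primed libraries (SD, n = 2 each). In CPM RSeT+DT lay above RSeT by a small margin, without overlap, and overlapped primed. The log2 fold change against RSeT was 0.27 (SE 0.051, adjusted p = 9.56e-05) with TMM, but 0.12 and not called with library totals. It was 0.49 with interspersed and 0.54 with hAT scaling, both called. Against primed, RSeT+DT was called higher with TMM (0.30, adjusted p = 4.53e-05), interspersed (0.35) and hAT scaling (0.50). With library totals that difference was 0.01 and not called.

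The deepest falls that held under the 4 scalings came from different branches. hAT-N1_Mam, a non-autonomous element of mammals, had 22.66 CPM in both RSeT+DT libraries, 39.50 and 38.92 CPM in RSeT and 37.12 and 35.30 CPM in primed libraries. Both RSeT+DT libraries were far below the other 4. It fell to 0.642-fold of RSeT (log2 fold change -0.64, SE 0.084, adjusted p = 7.11e-07). Arthur1B, of the Tip100 group, had 54.12 and 61.20 CPM in RSeT+DT, 92.59 and 99.31 CPM in RSeT and 79.65 and 77.86 CPM in primed libraries. In CPM RSeT was highest and RSeT+DT lowest, with no overlap between groups (RSeT+DT against RSeT -0.58, SE 0.060, adjusted p = 1.92e-08). RSeT+DT against primed was called with TMM (-0.17, adjusted p = 0.0313), but not with interspersed (-0.11) or hAT scaling (0.03).

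4 further Charlie entries and MER5C fell by 0.45 to 0.53 on the log2 scale. Charlie23a had 56.65 and 57.73 CPM in RSeT+DT, against 91.29 and 92.67 CPM in RSeT. Charlie25 had 41.72 and 46.09 CPM, against 71.73 and 67.66 CPM in RSeT. Charlie20a had 39.96 and 44.45 CPM in RSeT+DT, against 67.64 and 65.39 CPM in RSeT. In these 3 entries each RSeT+DT library was well below each RSeT library. Charlie7a (-0.45) and MER5C (-0.47) moved likewise, and the adjusted p of these 5 lay between 1.55e-08 and 4.14e-07. Charlie12 had the lowest log2 fold change (-0.84, SE 0.27, adjusted p = 0.0141) on few counts: 1.684 and 1.476 CPM in RSeT+DT, against 3.420 and 2.792 CPM in RSeT. Its call was lost without RSeT+DT replicate 2 (-0.72), without RSeT replicate 1 (-0.66), with interspersed scaling (-0.64), with hAT scaling (-0.57) and with DESeq2 (-0.87).

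Charlie3 and its non-autonomous relatives MER1A and MER1B, which are thought to have been moved by the Charlie3 enzyme, all fell in RSeT+DT. MER1A had 400.7 and 448.8 CPM in RSeT+DT, 618.0 and 654.1 CPM in RSeT and 670.6 and 744.9 CPM in primed libraries. RSeT+DT lay below both other groups (against RSeT -0.43, SE 0.049, adjusted p = 8.22e-08), and MER1A stayed lower than the rest of the family (-0.16, adjusted p = 0.0102, hAT scaling). For MER1B the log2 fold change was -0.28 with TMM, and -0.01 and not called with hAT scaling, so it moved as the family did. Charlie3 fell by 0.38 with TMM and was not called with hAT scaling either (-0.115, adjusted p = 0.187).

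Of the 5 most counted entries, MER58A and MER1B fell by 0.28 under TMM, close to the family median, and MER5A, MER20 and MER5B fell by less. With interspersed scaling the direction of MER5A was the opposite. MER5A had 2199 and 2248 CPM in RSeT+DT, against 2719 and 2759 CPM in RSeT, with a log2 fold change of -0.15 under TMM and 0.07 under interspersed scaling, both called. MER20, known as a source of regulatory sequence in endometrial stromal cells, had 1526 and 1547 CPM in RSeT+DT, against 1925 and 2005 CPM in RSeT (TMM -0.20, called; interspersed 0.02, not called). In both entries the RSeT+DT libraries were lower in CPM with no overlap. Besides MER5A, Charlie4z, Charlie9, Charlie15a, MER96, MER96B and MER117 were called in both directions, depending on the scaling.

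RSeT against primed cells asked what the naive-like medium did without drugs. In RSeT cells 35 of 98 hAT entries were higher, 6 lower and 57 not called under TMM, against 22.8% higher and 23.8% lower of all 4665 entries. Of the 1154 entries other than simple repeats, rRNA and small RNA, 586 were higher and 96 lower. The median log2 fold change was 0.07 over hAT entries, 0.16 over those 1154, 0.16 over other DNA transposons (48 of 76 higher, 2 lower) and -0.01 over MIR and L2 (none of 12 higher, 2 lower). The split turned with the scaling: 13 higher and 28 lower with library totals (14.6% and 32.9% of all 4665), and 13 higher and 42 lower with interspersed scaling (30.1% and 26.5% of 1151 entries), where the hAT median was -0.09. With hAT scaling 16 were higher and 20 lower (17.5% and 28.1% of all 4665). In CPM 22 members lay above primed without overlap and 48 below, against 24.4% and 49.2% of all entries. Without primed replicate 1, 23 entries were called higher under TMM, and the lower calls were 3 without RSeT replicate 2 and 10 without RSeT+DT replicate 1.

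**Figure D3:**
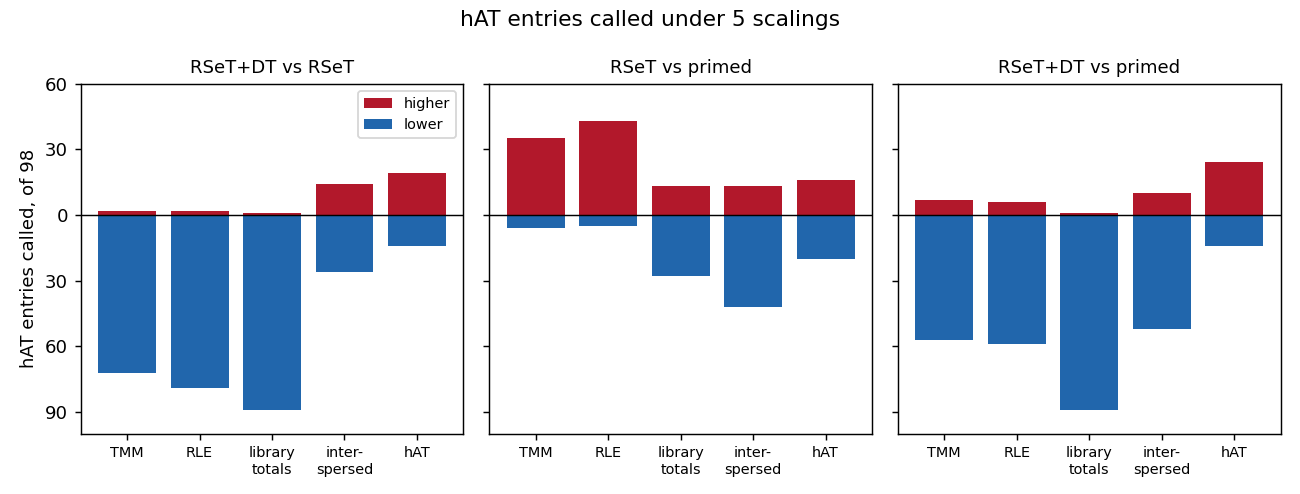
Number of the 98 hAT entries called higher (red, upward) and lower (blue, downward; y axis, entries) in 3 comparisons under 5 scalings (x axis). In RSeT+DT against RSeT the lower calls go down to 26 with interspersed and 14 with hAT scaling, and in RSeT against primed the split turns to 13 higher and 42 lower with interspersed scaling.

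Called in 1 direction under all 4 scalings were 13 entries higher and 5 lower in RSeT, against 29.0% and 7.04% of the 1151 entries. The 13 were Charlie5, Charlie7, Charlie9, Charlie10a, Charlie13a, Charlie21a, Charlie25, Cheshire, Arthur1B, Zaphod, ORSL, MER96 and MER63D, so both the Charlie and the Tip100 branch were among them, and none was a MER entry of hAT-Charlie. All 13 were also called higher with hAT scaling. The 5 lower entries were Charlie3, Charlie16a, MER91C, MER113 and hAT-16_Crp, and these too were called lower with hAT scaling. The median shift from TMM was -0.07 with hAT scaling, between 0.03 with RLE and -0.16 with interspersed scaling. The hAT scaling calls of these entries thus nearly followed from the 4 scalings and were no separate check. Under TMM, MER91C (-0.17) lost its call without RSeT replicate 2 (-0.14) and without either primed library (-0.17 each), and MER113 (-0.14) without RSeT replicate 2 (-0.11). DESeq2 called neither of these 2 entries (-0.14 and -0.12).

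Among the rises, Charlie21a was the largest (1.87-fold, log2 fold change 0.91, SE 0.063, adjusted p = 5.91e-12). Charlie10a had 37.82 and 43.66 CPM in RSeT+DT, 60.14 and 53.23 CPM in RSeT and 40.68 and 38.67 CPM in primed libraries. In CPM RSeT was above the other 2 groups, which overlapped (RSeT against primed 0.66, SE 0.074, adjusted p = 5.43e-08). Under TMM RSeT+DT was also called above primed (0.32, adjusted p = 0.00304), but not with library totals (0.03). RSeT+DT was called below RSeT under TMM (-0.34), but not with interspersed (-0.12) or hAT scaling (-0.07). ORSL, a Tip100 element, had 65.73 and 70.51 CPM in RSeT, against 51.38 and 55.18 CPM in primed libraries, with no overlap (0.48, SE 0.059, adjusted p = 2.25e-07). Charlie25, Zaphod, Charlie9, Charlie7 and Arthur1B rose by 0.41 to 0.45 on the log2 scale, with adjusted p between 3.72e-09 and 1.18e-06. Cheshire, with 166.5 and 172.1 CPM in RSeT and 144.3 and 145.2 CPM in primed libraries, rose by 0.36 (SE 0.046, adjusted p = 4.41e-07).

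**Figure D4:**
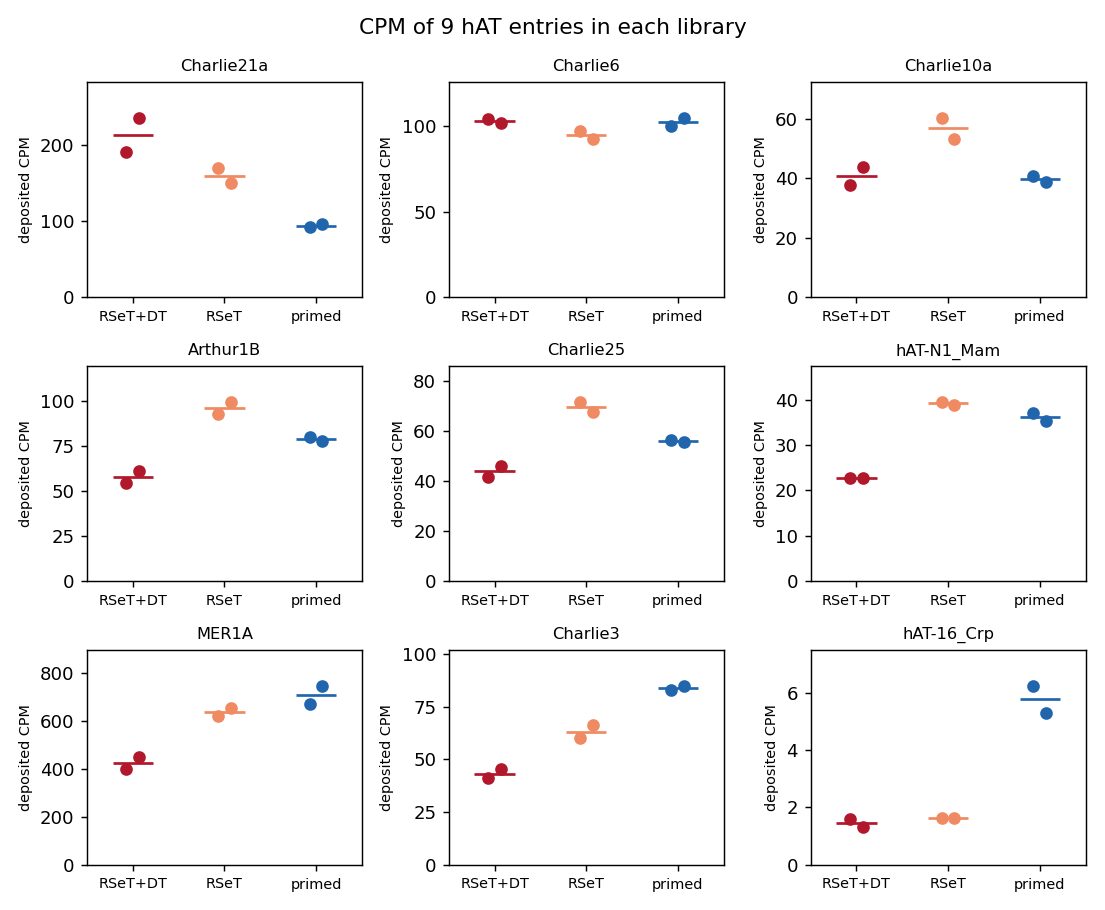
Deposited CPM (y axes, linear, from 0) of 9 hAT entries in each library of RSeT+DT, RSeT and primed cells (x axis). Points are libraries and bars are group means. Charlie21a is highest in RSeT+DT (190.6 and 235.0 CPM), Charlie10a, Arthur1B and Charlie25 are highest in RSeT, and MER1A, Charlie3 and hAT-16_Crp are highest in primed cells.

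hAT-16_Crp, whose name follows an element described in a crocodile, gave the deepest fall, on few counts. It had 1.608 and 1.302 CPM in RSeT+DT (21 and 15 counts), 1.618 and 1.629 CPM in RSeT (62 and 28 counts) and 6.236 and 5.284 CPM in primed libraries (72 counts in the shallower one). Both primed libraries were far above the other 4. RSeT was at 0.308-fold of primed (log2 fold change -1.70, SE 0.23, adjusted p = 8.06e-07), and RSeT+DT did not differ detectably from RSeT at this depth (0.01, SE 0.31, adjusted p = 0.990). Charlie3 had 41.26 and 45.31 CPM in RSeT+DT, 59.96 and 66.32 CPM in RSeT and 82.80 and 84.90 CPM in primed libraries. Its 3 groups were ordered without overlap, primed highest (RSeT against primed -0.29, SE 0.058, adjusted p = 2.39e-04). Under TMM MER1A (-0.02), MER1B (-0.05) and MER20 (-0.09) were not called. With interspersed scaling all 3 were called lower, at -0.18, -0.21 and -0.25, and hAT scaling called MER1B (-0.12) and MER20 (-0.16) lower but not MER1A. ORSL-2b passed with all libraries (-0.21, adjusted p = 0.0372) but not when any 1 of the 4 libraries compared was left out.

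RSeT+DT against primed combined both steps, and it shares its libraries with the 2 comparisons above. In RSeT+DT cells 57 of 98 hAT entries fell, 7 rose and 34 were not called under TMM, against 20.6% lower and 25.1% higher of all 4665 entries, and 396 lower and 284 higher of the 1154. The median was -0.20 over hAT entries, -0.07 over the 1154, -0.15 over other DNA transposons (39 of 76 lower, 12 higher) and -0.25 over MIR and L2 (10 of 12 lower, none higher). Library totals called 89 hAT entries lower and 1 higher (38.3% and 13.0% of all 4665), and interspersed scaling 52 lower and 10 higher (29.6% and 32.3% of 1151 entries). With hAT scaling 14 were lower and 24 higher (10.2% and 36.0% of all 4665). In CPM 92 members lay below primed without overlap and 2 above, against 54.5% and 20.2% of all entries. Under all 4 scalings 52 entries were lower and 1 higher, against 29.5% and 10.9% of those entries. By subgroup under TMM, 23 of 28 MER entries of hAT-Charlie, 21 of 41 Charlie and Cheshire entries, 7 of 20 Tip100 entries and 4 of 7 Blackjack entries fell.

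Charlie21a was the single entry higher under all 4 scalings, 2.76-fold above primed (log2 fold change 1.46, SE 0.064, adjusted p = 8.09e-16; range 1.18 to 1.52). Charlie9 was higher with TMM (0.37, SE 0.052, adjusted p = 1.51e-06), with 102.5 and 112.9 CPM in RSeT+DT and 100.3 and 102.1 CPM in primed libraries, but not under all 4. Charlie12 was at -0.82, a call that was lost with hAT scaling (-0.62), with DESeq2 (-0.83) and without RSeT+DT replicate 1 (-0.95), RSeT+DT replicate 2 (-0.69) or primed replicate 1 (-0.74). After hAT-16_Crp (-1.69), the next deepest falls were Charlie3 at 0.628-fold (-0.67, SE 0.067, adjusted p = 6.57e-09), MER91C (-0.49), Charlie20a (-0.48), MER113 (-0.48) and MER113A (-0.47). MER91C, a Tip100 element, had 51.90 and 49.22 CPM in RSeT+DT, 71.08 and 69.23 CPM in RSeT and 84.87 and 88.50 CPM in primed libraries, and its groups did not overlap. MER113 had 187.9 and 208.2 CPM, 281.7 and 272.4 CPM and 327.7 and 343.7 CPM in the same order of groups, again without overlap.

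Entries that share a name stem are close relatives, and within a stem the entries did not always move together. Of the counts in the 4 Arthur1 entries, Arthur1B took 33.7% ± 0.38 in RSeT+DT, against 40.8% ± 1.4 in RSeT and 35.2% ± 0.49 in primed cells (SD, n = 2 each). Its gain in RSeT stood beyond the spread of the libraries, while Arthur1, Arthur1A and Arthur1C were not called in RSeT against primed. Within the 4 MER45 entries, MER45A took 44.3% ± 0.63 in RSeT+DT, against 45.8% ± 0.83 in RSeT and 51.0% ± 0.25 in primed cells. MER45A was thus a smaller part of its stem in both RSeT groups than in primed cells. By contrast MER113 kept 68.3% ± 0.30, 68.2% ± 0.98 and 68.6% ± 0.52 of its 3-entry stem in the same order of groups, with no difference beyond the spread of the libraries. Reads from near-identical copies could be split between such entries, and how the authors counted them is not given in the sources used here.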

How the data were processed

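RNA of 6 H9 libraries (total RNA, stranded kit, per the labels' protocols) was read from 2 deposited tables. Raw counts per repeat entry (15600 entries) and CPM (7383 entries with at least 10 counts in total) were both made by the authors; the deposited CPM match the counts, scaled to the sum of the listed entries, within 0.00442 CPM. The build GRCh38 and the tools Subread 2.14.2, featureCounts, STAR 2.7.8a and Trimmomatic 0.39 are named per the submitters' processing notes. The sources used here give no repeat annotation, strand setting or rule for reads that map to many places. Counts are summed over copies, so no coordinates or repeat sequences are given.

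Counts were tested with edgeR 4.0.16 in R 4.3.3 (filterByExpr, minimum count 10 and minimum total 15, TMM, quasi-likelihood test, all 6 libraries in 1 fit, 3 residual degrees of freedom, common biological coefficient of variation 5.49%). A call is a Benjamini-Hochberg adjusted p under 0.05 over the entries of each fit. These were 4665 in the main fit and 1151 with interspersed scaling. Standard errors were derived from the fold change and its F statistic. Fold changes are RSeT+DT over RSeT, RSeT over primed and RSeT+DT over primed. Interspersed scaling dropped simple, rRNA and small RNA entries before TMM and kept satellites and other entries. The hAT scaling computed TMM from the 98 members. Alternatives were RLE, library totals, other filters, DESeq2 1.42.0, limma 3.58.1 on log2 of CPM plus 1 or 0.1, a 1.2-fold minimum, RSeT replicate 1 thinned to 17191110 counts, a replicate block and leaving out each library. The test was run on simulated counts first. Replicates differed by more than sampling noise (chi-square per degree of freedom over members 3.35 in RSeT+DT, against 3.51 in RSeT and 1.56 in primed), so none was merged.

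The members and lists were chosen with earlier results of these data known. Named per comparison are the 8 largest rises and 8 largest falls among called members with a mean count of at least 50 and no overlap in CPM, plus a fixed list of well-known entries; others named by call under 4 scalings were chosen after their values were seen, as were the members of that 4-scaling count.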

Additional observations from a re-analysis of the deposited data

How the results depend on the processing

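Relative to TMM, the median log2 fold change of the members moved by 0.22, -0.16 and 0.06 with interspersed scaling and by -0.15, -0.13 and -0.29 with library totals (RSeT+DT against RSeT, RSeT against primed, RSeT+DT against primed), by construction of the scalings. In RSeT+DT against RSeT, 2 entries were higher with TMM, 1 with library totals, 14 with interspersed and 19 with hAT scaling, 1 with limma at either pseudocount, 1 with a 1.2-fold minimum and 1 under 4 scalings; the 72 lower became 26, 14 (hAT scaling), 19 (1.2-fold) and 26 (4 scalings). In RSeT against primed, the 35 higher became 13 with library totals, 13 interspersed, 16 hAT, 10 and 10 with limma (plus 1 and 0.1), 9 with 1.2-fold and 13 under 4 scalings. The 6 lower became 28, 42, 20, 27, 25 and 1 in the same settings up to 1.2-fold, and 13 with a mean count of at least 50, 3 with DESeq2 and 10 with only the 2 groups compared. In RSeT+DT against primed, the 7 higher became 1 with library totals, 24 with hAT scaling, 1 and 1 with limma, 2 with 1.2-fold and 1 under 4 scalings; the 57 lower became 89, 14, 90, 90 and 12 up to 1.2-fold. Leaving out each library gave 2 to 2 higher and 62 to 71 lower, 23 to 41 higher and 3 to 10 lower, and 6 to 8 higher and 51 to 56 lower in the 3 comparisons. Replicate numbers did not pair the libraries (correlations of deviations 0.002, -0.040 and 0.050), and a replicate block gave 2 and 71, 36 and 7, and 7 and 57 calls and changed no named call. Apart from the shifts of the medians between scalings, the cause of these moves was not tested. The shares of all entries called are given above for the scalings only. Counts in the other settings have no such reference and do not compare the members with all entries. The hAT shares were 3.18% (RSeT+DT), 3.60% (RSeT) and 4.43% (primed) without simple repeats, rRNA and small RNA.

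Signs turned for these log2 fold changes, among entries named by the rule and called with TMM or in the setting given. Other members turned too and are not listed. In RSeT+DT against RSeT, 6 of 98 members were above 0 with TMM and 36 with interspersed scaling. With hAT scaling, RSeT+DT against RSeT: Charlie16a 0.133, Charlie9 0.210, MER20 0.0683, MER3 0.0401, MER5A 0.122, MER5A1 0.0375, MER5B 0.0730, MER63A 0.0364, MER81 0.149 and MER91A 0.0994. With hAT scaling, RSeT+DT against primed: Arthur1B 0.0301, Cheshire 0.128, MER20B 0.0354, MER30 0.0113, MER5A 0.0665, MER5A1 0.0378, MER5B 0.0105, MER63A 0.136 and MER81 0.00526. With interspersed scaling, RSeT against primed: Charlie1 -0.0393, Charlie20a -0.131, Charlie6 -0.132, Charlie7a -0.0328, MER20B -0.0257, MER33 -0.0754, MER58A -0.0968, MER5A -0.147, MER5A1 -0.0917 and MER5B -0.154. With interspersed scaling, RSeT+DT against RSeT: Charlie16a 0.0832, Charlie9 0.157, MER20 0.0192, MER5A 0.0726, MER5B 0.0236, MER81 0.101 and MER91A 0.0503. With library totals: Charlie1 -0.0122 and Charlie7a -0.00301 (RSeT against primed) and Charlie7 -0.218 (RSeT+DT against primed). With limma, RSeT against primed, plus 0.1 and plus 1: Charlie1 -0.0133 in both, Charlie7a -0.00252 and -0.00250, MER5B -0.125 in both; Charlie7, RSeT+DT against primed, -0.220 and -0.219.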

Other observations

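Further entries whose names belong to the hAT superfamily lay outside the name rule, which reads upper and lower case as different; 11 of them were tested, and they were picked after the tables had been seen. In RSeT+DT against RSeT 1 of the 11 was higher and 4 were lower (edgeR, TMM), against 25.0% and 17.4% of all 4665 entries. In RSeT against primed 5 were higher and 3 lower, against 22.8% and 23.8%. In RSeT+DT against primed 5 were higher and 4 lower, against 25.1% and 20.6%. Among the 1154 entries other than simple repeats, rRNA and small RNA, 5.55% were higher and 54.3% lower in the first comparison. In the second 50.8% and 8.32% were, and in the third 24.6% and 34.3%. OldhAT1 had 1619 and 1543 CPM in RSeT+DT, 1344 and 1305 CPM in RSeT and 1480 and 1518 CPM in primed libraries. Both RSeT+DT libraries were the highest, and the log2 fold change against RSeT was 0.41 (SE 0.046, adjusted p = 5.58e-08). BLACKJACK had 161.0 and 168.2 CPM in RSeT+DT, 181.3 and 178.0 CPM in RSeT and 139.0 and 143.3 CPM in primed libraries. RSeT+DT and RSeT both lay above primed (0.51 and 0.48, adjusted p = 2.24e-10 each), and the difference between them did not pass the test (0.03, SE 0.040, adjusted p = 0.642). MER97c had 12.63 and 11.72 CPM in RSeT+DT, 20.36 and 19.37 CPM in RSeT and 9.978 and 8.586 CPM in primed libraries, with the 3 groups apart (RSeT+DT against RSeT -0.56, RSeT against primed 1.22). MER102a, MER102b and MER102c had log2 fold changes of -0.12 to -0.18 in RSeT+DT against RSeT, all called under TMM. With interspersed scaling 3 of the 11 entries were higher and 1 lower, against 22.7% and 20.8% of 1151 entries. With hAT scaling 3 were higher and 0 lower, against 40.4% and 4.16% of all 4665, so no MER102 entry was called lower there.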
